A study of Mus musculus with 12 samples.

Results

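The 6 mouse embryos that carry an altered LC1 element were compared with the 6 wild-type embryos of the same study, and each gene was asked whether it lay on the same side in both experiments or on opposite sides. All 12 libraries of the series entered the comparison, 6 altered and 6 wild type. Altered embryos are those titled LC1_KO (embryos 7, 22 and 71, labelled as LC1 knockout) and RKI_homozygous (embryos A1, A10 and A18, homozygous for a knock-in of rs77910749). Wild types are LC1_WT (embryos 6, 26 and 73) and RKI_WT (embryos A2, A9 and A16). Each altered group was set only against the wild types of its own experiment. All embryos are given as C57BL/6J at embryonic day 14.5, and polyadenylated RNA was read from homogenates of the dissected brain. Every LC1 embryo is female, and the RKI groups each have 2 males and 1 female. The labels state matching by sex and litter but name no litter, and they do not say how many founder lines stand behind either allele. The experiments thus differ at least in allele, in families and in the sexes present. The parts of these in any difference between the effects cannot be told apart.

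LC1 is a conserved non-coding element near Pou3f2, the gene for a transcription factor of the POU family also known as Brn2. POU3F2 binds octamer-like DNA sequences together with SOX and basic helix-loop-helix factors, and in the embryonic forebrain it acts in intermediate progenitors and in the production and migration of upper-layer cortical neurons. A deletion takes the element away, whereas the knock-in changes the element and leaves it in place. What either change does to the element's function was not measured here. Genes on the same side in both experiments and genes on opposite sides are therefore described apart.

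Total counts per library ran from 18192984 to 26566769, and the level of the sex-linked gene Xist matched the labelled sex in all 12 libraries. Of 40690 gene identifiers, 16002 passed the filter on low counts and were tested. Levels are in CPM, the reads of a gene scaled by TMM to the same total in every library. Gabra2, a GABA-A receptor subunit gene, was at 18.4 to 22.8 CPM in the LC1 libraries and 35.8 to 41.9 CPM in the RKI libraries, wild types included. Whether the lines differ in more than the altered element was not tested. The labels name brain as the tissue, and the protocol says that it was taken whole. Forebrain was present by the cortical gene Tbr1, at a mean of 394 CPM, and the GABAergic gene Gad2, at 157 CPM. Markers of the hindbrain were at or near 0, although the protocol says whole brain. Over all 12 libraries together Hoxa2 had 3 reads, Hoxb4 4 and Hoxb2, Hoxb3 and Fev 0, while Egr2 had 51 and Tph2 89. The abundant mitochondrial transcripts mt-Co2 and mt-Co3 are also listed at 0, so a 0 may come from the counting. Whether hindbrain was missing from the dissection was not tested. En1 of the midbrain and isthmus had a mean of 0.862 CPM. Fewer cells of a type and less RNA per cell cannot be told apart in these homogenates. Embryos 6 and A16, both wild types, stood apart from the other libraries of their experiment in several of the marker lists described further down.

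Pou3f2 itself lay on no consistent side. Its levels were 86.7, 97.8 and 95.8 CPM in the LC1 wild types 6, 26 and 73, and 102, 92.8 and 106 CPM in knockouts 7, 22 and 71. Among RKI wild types (A2, A9, A16) it was at 97.0, 97.8 and 90.9 CPM, and in homozygotes A1, A10 and A18 at 97.1, 95.8 and 91.4 CPM. The groups overlap in both experiments. The shared effect, which is the mean of the log2 fold changes of both experiments (altered minus wild type), was 0.05 (SE 0.046), and its 95% interval ran from -0.05 to 0.14. As a fold this is 1.03, and its interval reaches from 0.966 to 1.10. An exact two-sided permutation test over the 12 embryos, with genotypes exchanged only within an experiment, gave p = 0.35 over 400 arrangements, where 0.005 is the smallest p they can give. The RKI effect minus the LC1 effect was -0.11 with SE 0.091 (unadjusted p = 0.257 by edgeR's quasi-likelihood test). Leaving out each library in turn gave shared effects between 0.02 and 0.07.

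Over all genes, no gene met the adjusted threshold for moving the same way or for moving differently. By edgeR's quasi-likelihood test with Benjamini-Hochberg adjustment, 0 of 16002 genes (0%) passed an adjusted p of 0.05 for the shared effect, 0 (0%) for the difference between the effects, and 0 (0%) when each gene was given the larger of its p-values in the experiments. DESeq2 and limma-voom also called 0 in each of these. With neighbouring embryo numbers as a block, 1 gene passed for the difference, the nuclear receptor gene Esrrb at 1.55 (edgeR, adjusted p = 0.0269), and 0 for the shared effect. Deviations from the group means correlated at 0.102 to 0.528 in the 6 neighbouring pairs, and no label ties these pairs to litters. The smallest adjusted p was 0.9999 for the shared effect and 0.9998 for the difference. At an unadjusted p under 0.05 the shared effect was positive for 105 genes (0.656%) and negative for 190 (1.19%). For the difference there were 194 genes with the RKI effect above the LC1 effect (1.21%) and 194 below it (1.21%). Both totals, 295 and 388 genes, are below the share of 0.05 that this threshold passes when no gene has an effect. DESeq2 had 148 and 238 genes at an unadjusted p under 0.05 for the shared effect and the difference. Only 11 genes were under 0.05 in both experiments, 5 with the same sign (0.0312%) and 6 with opposite signs (0.0375%). The values of single genes below are therefore descriptions of these 12 embryos.

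The effects were small and showed no common direction across genes. The median absolute log2 fold change was 0.07 in LC1 and 0.06 in RKI, and the median SE of the shared effect was 0.068. Both effects had the same sign in 7734 genes (48.3%) and opposite signs in 8268. Of all genes 23.8% were higher in both, 24.5% lower in both, 24.8% higher in LC1 and lower in RKI, and 26.8% lower in LC1 and higher in RKI. Across genes, which are not independent replicates, Pearson's r between the effects was -0.04 and Spearman's rho -0.05. Among the 10319 genes of at least 10 CPM the same-sign share was 48.1% and r was -0.10. Without A16 the same-sign share was 44.94%, and without A2 it was 50.75%.

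A second description used only the ranks of the libraries: a gene counts as without overlap in an experiment when all 3 altered libraries lie above, or all below, the 3 wild types. There were 1146 such genes in LC1 (7.16%) and 907 in RKI (5.67%). With 3 against 3 libraries, the share expected to separate in this way without any effect of genotype is higher than either of these. These counts therefore do not mark an effect. Both sets shared 78 genes, which is also fewer than expected without any effect. The 78 genes are 6.81% of the LC1 set, beside the 5.67% of all genes without overlap in RKI. Of the RKI set they are 8.60%, beside the 7.16% of all genes without overlap in LC1. Of the 78 genes, 28 lay on the same side in both experiments, 8 higher in altered embryos (0.05%) and 20 lower (0.125%). The other 50 lay on opposite sides, 22 higher in LC1 knockouts and lower in RKI homozygotes (0.137%) and 28 the other way round (0.175%). Opposite genes outnumbered same-side genes with any of the 12 libraries left out. Where a log2 fold change of at least 0.2 was required in each experiment as well, 14 same-side and 17 opposite genes were left.

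**Figure D1:**
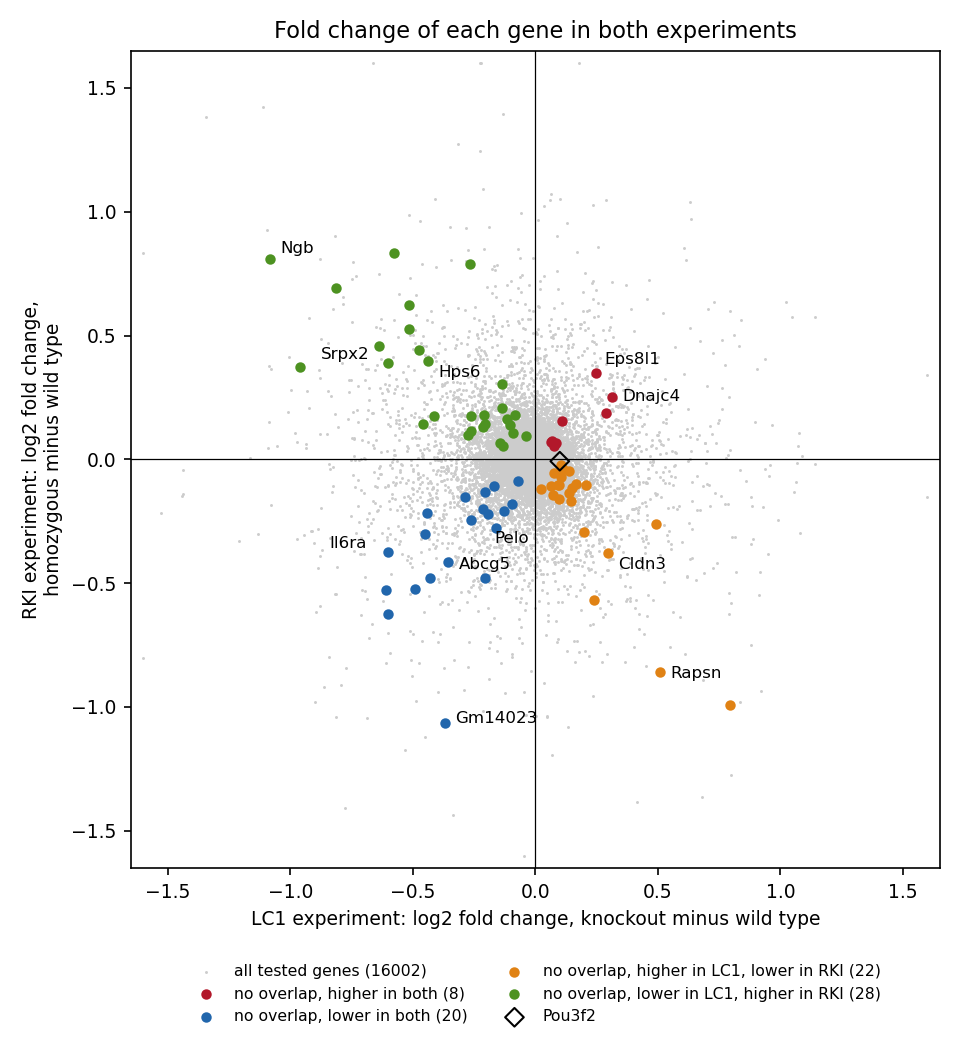
Log2 fold change of each of the 16002 tested genes in the LC1 experiment (horizontal axis, knockout minus wild type) and in the RKI experiment (vertical axis, homozygous minus wild type); 9 genes beyond 1.6 are drawn at the edge. Colours mark the 78 genes whose altered and wild-type libraries do not overlap in either experiment, 28 on the same side and 50 on opposite sides, and the open diamond marks Pou3f2 near the origin.

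Among genes higher in altered embryos of both experiments, Dnajc4 had the smallest p of the shared effect. It encodes a member of the J-domain family of co-chaperones and lies on chromosome 19 at 6987911 to 6992572, minus strand (all positions are from GENCODE M21 on GRCm38). Its levels were 8.72, 8.08 and 7.76 CPM in LC1 wild types (6, 26, 73) and 10.1, 10.3 and 10.1 CPM in knockouts (7, 22, 71). The RKI levels were 8.60, 8.27 and 7.34 CPM in wild types (A2, A9, A16) and 10.2, 9.04 and 9.62 CPM in homozygotes (A1, A10, A18). Every altered library lay above every wild type, also across the experiments. The log2 fold change was 0.31 in LC1 and 0.25 in RKI, and the shared effect was 0.28 with SE 0.075 (edgeR, adjusted p = 0.9999). With any library left out the shared effect stayed between 0.24 and 0.31.

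Eps8l1, a relative of the actin regulator Eps8, lies on chromosome 7 at 4460674 to 4480487, plus strand, and overlaps the antisense gene Gm15494. It was at 8.43, 9.07 and 9.27 CPM among LC1 wild types against at 11.3, 10.2 and 10.3 CPM in knockouts. RKI libraries were at 8.60, 8.48 and 6.67 CPM in wild types and at 11.2, 9.73 and 9.39 CPM in homozygotes. The groups did not overlap in either experiment, and A16 was the lowest library. The shared effect was 0.30 with SE 0.084.

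Gpr165 on chromosome X, which encodes an orphan G protein-coupled receptor, was at 9.07, 9.12 and 8.92 CPM among LC1 wild types against 10.7, 11.6 and 10.7 CPM in knockouts. Its RKI values were 9.03, 9.32 and 7.97 CPM in wild types and 10.2, 9.68 and 10.1 CPM in homozygotes. The shared effect was 0.24 with SE 0.071. The other 5 genes higher in both without overlap had smaller effects. They were Fam219b, Rraga, Tbpl1, Ric8b and Arl8b, with log2 fold changes of 0.06 to 0.16. Rraga encodes a Rag GTPase that signals amino acid supply to mTORC1, and Arl8b a small GTPase of lysosomes. Rraga was at 107 to 110 CPM among LC1 wild types against 112 to 116 CPM in knockouts, and at 103 to 105 CPM in RKI wild types and 105 to 112 CPM in homozygotes.

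Foxr2, a forkhead transcription factor gene, was one of the 5 genes at an unadjusted p under 0.05 in both experiments with the same sign. It was at 0.719 ± 0.166 CPM among LC1 wild types against 1.21 ± 0.473 CPM in knockouts (SD, n = 3 each), and at 1.04 ± 0.123 and 1.57 ± 0.145 CPM in RKI wild types and homozygotes (SD, n = 3 each). The LC1 groups overlap. Its shared effect was 0.65 with SE 0.207.

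The thalamic transcription factor genes Shox2 and Gbx2 were also among the 10 higher genes with the smallest p of the shared effect. Shox2 was at 18.8 ± 0.860 and 20.0 ± 0.680 CPM among LC1 wild types against knockouts, and at 13.3 ± 3.30 and 19.2 ± 0.992 CPM in RKI wild types and homozygotes (SD, n = 3 each). Its shared effect of 0.31 (SE 0.082) joins 0.09 in LC1 with 0.53 in RKI, and A16 was at 9.55 CPM, the lowest of 12. Gbx2 was more even, with 0.24 in LC1 and 0.29 in RKI, but the groups overlap in both experiments. Chrna4, which encodes a subunit of nicotinic acetylcholine receptors, had 0.08 in LC1 and 0.29 in RKI. The 3 predicted genes Gm21816, Gm14204 and Gm13245 complete the 10.

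On the lower side, Pelo was the gene without overlap with the smallest p. It encodes Pelota, which rescues stalled ribosomes, and lies on chromosome 13 at 115088355 to 115090186, minus strand, inside Itga1 on the same strand. Reads from these overlapping genes may be split or dropped by the counting, so its level is uncertain. Pelo was at 21.8, 21.2 and 19.7 CPM among LC1 wild types against 18.6, 17.7 and 18.6 CPM in knockouts. Within RKI it was at 20.4, 24.7 and 21.2 CPM in wild types and 18.4, 19.3 and 19.1 CPM in homozygotes. All 6 altered libraries lay below all 6 wild types. The log2 fold change was -0.19 in LC1 and -0.22 in RKI, and the shared effect was -0.21 with SE 0.056.

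Agtrap encodes a protein that binds the angiotensin II type 1 receptor, and lies on chromosome 4 at 148077061 to 148088031, minus strand, far from Pou3f2. It was at 10.9, 9.50 and 11.5 CPM among LC1 wild types against 9.02, 9.21 and 8.33 CPM in knockouts. In RKI it was at 10.4, 9.49 and 12.1 CPM in wild types and 9.14, 8.55 and 9.27 CPM in homozygotes. Each altered library lay below each wild type. Agtrap had a shared effect of -0.25 with SE 0.076, made of -0.26 in LC1 and -0.24 in RKI.

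Loxl1, an enzyme that cross-links elastin, was at 28.5, 26.9 and 26.3 CPM among LC1 wild types against 26.2, 24.9 and 23.6 CPM in knockouts. The RKI levels were 29.4, 28.5 and 31.3 CPM in wild types and 25.7, 24.9 and 26.5 CPM in homozygotes. The gap between the LC1 groups was narrow, since the lowest wild type and the highest knockout differed little. The shared effect was -0.17 with SE 0.050.

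Il6ra, the receptor subunit that binds interleukin 6, was lower without overlap at 3.31 ± 0.876 and 2.19 ± 0.0867 CPM among LC1 wild types against knockouts, and 2.76 ± 0.407 and 2.14 ± 0.237 CPM in RKI wild types and homozygotes (SD, n = 3 each). The sterol transporter gene Abcg5, which overlaps Abcg8 on the other strand, had -0.36 in LC1 and -0.42 in RKI. The shared effect of Abcg5 was -0.39, and with single libraries left out it ran from -0.46 to -0.26. Nod1, an intracellular sensor of bacterial peptidoglycan, had -0.21 and -0.20, and Sec16b, of the sites where vesicles leave the endoplasmic reticulum, had -0.43 and -0.48.

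The remaining lower genes without overlap had small effects, and those given here were chosen after their values were seen. Srp19 encodes a protein of the signal recognition particle, Mogs the first glucosidase that trims N-glycans, and Pigf an enzyme of GPI anchor synthesis. Srp19 was at 35.7 to 41.1 CPM among LC1 wild types against 31.9 to 35.6 CPM in knockouts, and at 34.5 to 36.5 CPM in RKI wild types and 31.5 to 33.8 CPM in homozygotes. Mogs had -0.07 in LC1 and -0.09 in RKI, and Pigf -0.21 and -0.13. Thbs1, a matrix protein released by astrocytes that promotes synapse formation, had -0.10 and -0.18. Of the 28 same-side genes, 23 are protein-coding, and 5 of the 20 lower ones are non-coding transcripts.

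Lower genes with a small p but with overlap in at least 1 experiment included Nexn, Fkbp11 and Wnt9a. Nexn, which encodes the actin-binding protein nexilin, had the smallest p of the shared effect of all genes (0.000867, unadjusted, edgeR) at -0.58 with SE 0.144. It was at 2.02 ± 0.0823 and 1.13 ± 0.132 CPM among LC1 wild types against knockouts, without overlap, and 2.20 ± 0.343 and 1.77 ± 0.174 CPM in RKI wild types and homozygotes, where 1 homozygote lay above 1 wild type (SD, n = 3 each). Fkbp11, a prolyl isomerase of the endoplasmic reticulum, had -0.49 and -0.97 at a mean of 0.961 CPM. Wnt9a, a Wnt ligand, was at 6.54, 6.01 and 7.66 CPM among LC1 wild types against 6.41, 4.66 and 4.81 CPM in knockouts. RKI libraries were at 7.2, 7.06 and 7.21 CPM in wild types and 5.11, 5.60 and 6.22 CPM in homozygotes. Its groups overlap only through LC1 embryos 26 and 7, and its log2 fold changes of -0.36 and -0.34 are nearly equal.

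**Figure D2:**
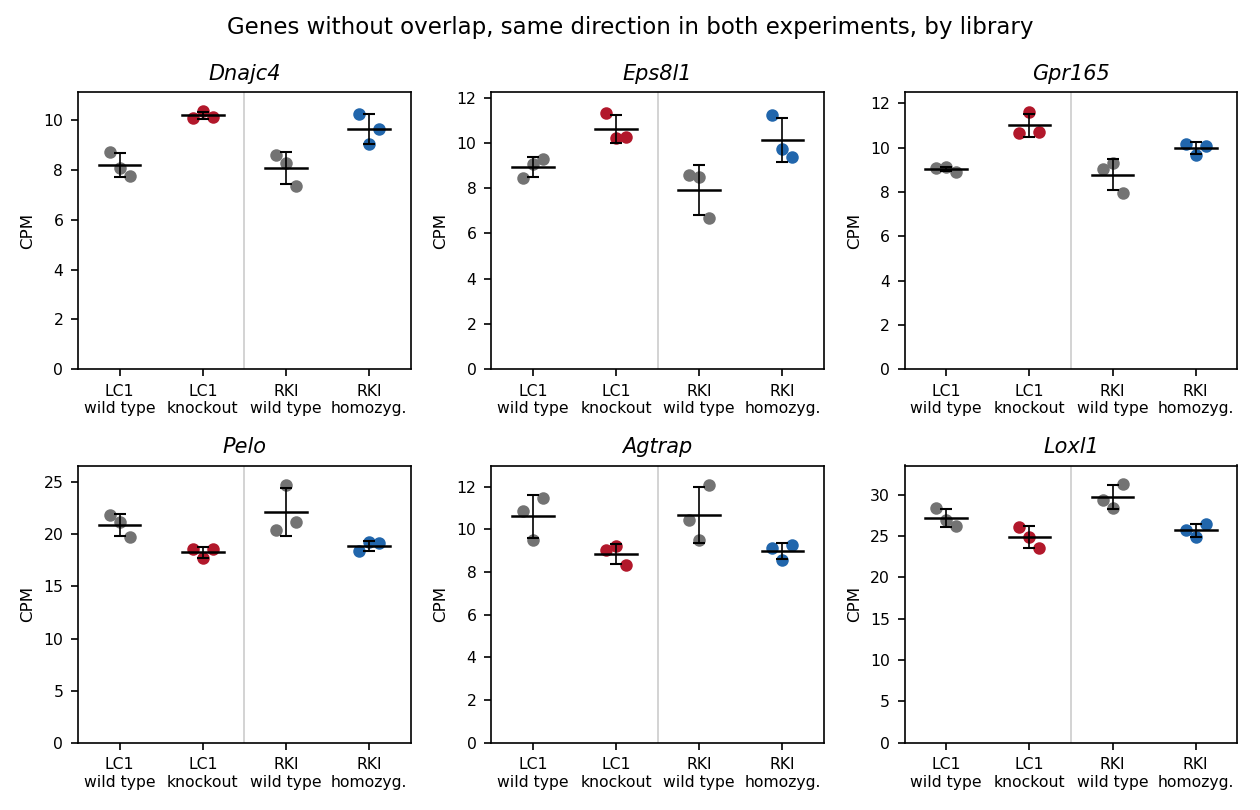
CPM per library (points) of 6 genes whose altered and wild-type libraries do not overlap in either experiment and lie on the same side; bars are the group mean and SD of 3 embryos, and each vertical axis starts at 0. Dnajc4, Eps8l1 and Gpr165 are higher and Pelo, Agtrap and Loxl1 lower in the altered embryos of both experiments.

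Rcor2 had the smallest p of the difference among the genes that lay higher in LC1 and lower in RKI without overlap. It encodes a corepressor that works with the demethylase LSD1 in neural progenitors, and lies on chromosome 19 at 7267325 to 7275225, plus strand. Rcor2 was at 133, 145 and 153 CPM among LC1 wild types against 174, 155 and 169 CPM in knockouts. Its RKI values were 162, 154 and 166 CPM in wild types and 151, 149.9 and 147 CPM in homozygotes. Altered libraries thus lay above the wild types in LC1 and below them in RKI. The log2 fold change was 0.21 in LC1 and -0.10 in RKI, and the RKI effect minus the LC1 effect was -0.31 with SE 0.089 (edgeR, adjusted p = 0.9998).

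Fezf2, the transcription factor that specifies subcerebral projection neurons of the cortex, followed the same pattern with a smaller LC1 part. It lies on chromosome 14 at 12342094 to 12348189, minus strand. Its levels were 103, 104 and 94.2 CPM among LC1 wild types against 108, 109 and 104.5 CPM in knockouts. Within RKI it was at 131, 119 and 124 CPM in wild types and 117, 110 and 108 CPM in homozygotes. The LC1 groups are separated by less than 1 CPM. The RKI wild types lay above all LC1 libraries, so the wild types differed between the experiments by more than the genotypes did within either. Fezf2 had 0.10 in LC1 and -0.16 in RKI, and a difference of -0.26 with SE 0.083.

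Klf3, a zinc finger repressor gene on chromosome 5, was at 23.1, 23.8 and 24.8 CPM among LC1 wild types against 28.4, 25.4 and 25.2 CPM in knockouts. In RKI it was at 28.4, 26.8 and 27.8 CPM in wild types and 26.7, 24.2 and 24.7 CPM in homozygotes. Its effects of 0.14 and -0.14 nearly cancel, which leaves a shared effect of 0.00. The tight junction gene Cldn3 had 0.30 and -0.38, and the Mediator subunit gene Med19 had 0.10 and -0.10. Of the 22 genes higher in LC1 and lower in RKI without overlap, 20 are protein-coding and 20 had a mean of at least 1 CPM. They include Fgfr1, a receptor for fibroblast growth factors, E2f4, a cell cycle regulator, and Ncstn, a subunit of the protease gamma-secretase. Ncstn had 0.11 and -0.02, so its RKI part was far smaller than its LC1 part although its RKI groups do not overlap.

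In the other direction, Hps6 led the genes without overlap that have a mean of at least 1 CPM, ranked by the larger of the p-values in the experiments. It encodes a subunit of the BLOC-2 complex that sorts cargo to lysosome-related organelles, and lies on chromosome 19 at 46003508 to 46006173, plus strand, overlapping a transcript on the same strand. Hps6 was at 2.53, 3.003 and 2.92 CPM among LC1 wild types against 1.87, 2.49 and 1.79 CPM in knockouts. The RKI levels were 2.26, 2.34 and 1.94 CPM in wild types and 2.77, 2.70 and 3.13 CPM in homozygotes. The log2 fold change was -0.44 in LC1 and 0.40 in RKI, a difference of 0.84 with SE 0.261.

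Srpx2, which encodes a secreted protein known to promote synapse formation, was at 1.88, 1.86 and 2.07 CPM among LC1 wild types against 1.12, 1.21 and 1.52 CPM in knockouts. RKI libraries were at 1.401, 1.30 and 1.35 CPM in wild types and 1.56, 2.02 and 1.76 CPM in homozygotes. RKI wild types and LC1 knockouts thus shared the low level. The difference was 0.99 with SE 0.295.

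F13a1, the A chain of coagulation factor XIII, which macrophages at the brain's borders express, was at 36.5, 27.6 and 28.9 CPM among LC1 wild types against 27.2, 24.3 and 26.3 CPM in knockouts. Its RKI values were 27.7, 26.3 and 26.3 CPM in wild types and 29.2, 28.6 and 32.9 CPM in homozygotes. Embryo 6 was the highest library in LC1. The difference was 0.44 with SE 0.135. Zufsp, a ubiquitin-chain protease gene, had -0.21 and 0.18, and Pstpip1, an adaptor of the cytoskeleton in blood cells, -0.48 and 0.44. Ngb, which encodes neuroglobin, was at 0.974 ± 0.0885 and 0.446 ± 0.162 CPM among LC1 wild types against knockouts and 0.424 ± 0.173 and 0.753 ± 0.103 CPM in RKI wild types and homozygotes (SD, n = 3 each), without overlap in either. Of the 28 genes lower in LC1 and higher in RKI, 25 are protein-coding and 19 had at least 1 CPM. They also include Usp29, which is expressed from the paternal allele, the homeobox gene Dbx2 and Cd83 of antigen-presenting cells.

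**Figure D3:**
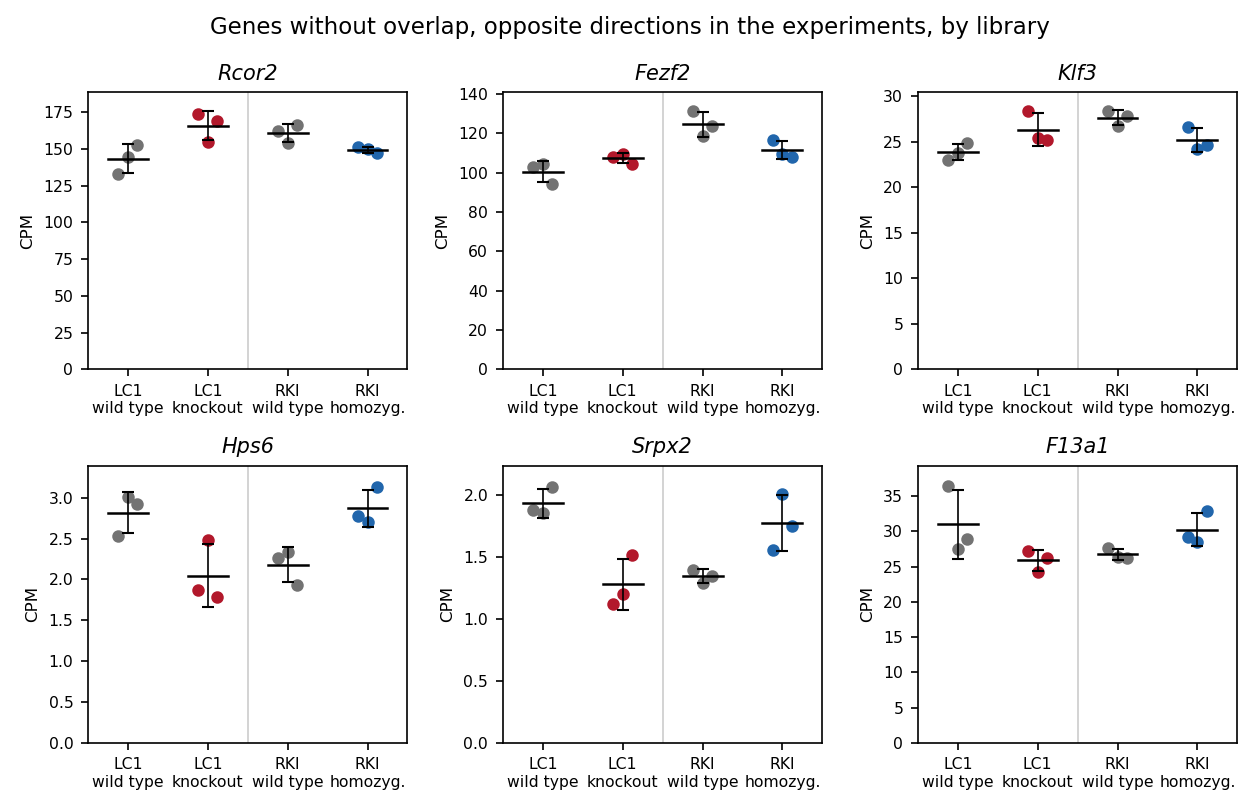
CPM per library (points) of 6 genes whose altered and wild-type libraries do not overlap in either experiment and lie on opposite sides; bars are the group mean and SD of 3 embryos, and each vertical axis starts at 0. Rcor2, Fezf2 and Klf3 are higher in LC1 knockouts and lower in RKI homozygotes, and Hps6, Srpx2 and F13a1 are lower in LC1 knockouts and higher in RKI homozygotes.

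Ranked by the test of the difference itself, Nrm came first on the side where the RKI effect was lower, followed by Rcor2 and Crb1, and Aurkb was among the first 10. Nrm encodes nurim of the inner nuclear membrane, and Aurkb the mitotic kinase Aurora B. Nrm was at 13.3, 14.6 and 15.0 CPM among LC1 wild types against 17.2, 17.3 and 17.1 CPM in knockouts. Within RKI it was at 17.8, 14.0 and 20.9 CPM in wild types and 13.2, 14.2 and 14.5 CPM in homozygotes, where A9 lay among the homozygotes. Nrm had a difference of -0.59 with SE 0.150 (edgeR, adjusted p = 0.9998). Aurkb had 0.25 in LC1 and -0.26 in RKI, with A16 at 36.4 CPM above all other libraries. Fgf10, a growth factor gene, had 0.80 and -0.58 at a mean of 1.22 CPM.

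Crb1, an apical polarity gene, had almost its whole difference in RKI. It was at 25.6, 21.6 and 22.0 CPM among LC1 wild types against 27.2, 22.2 and 22.2 CPM in knockouts, which overlap. In RKI it was at 21.8, 14.5 and 19.9 CPM in wild types and 14.0, 7.37 and 6.30 CPM in homozygotes, without overlap. The RKI effect was -1.03 and the LC1 effect 0.05, a difference of -1.08 with SE 0.288. Without homozygote A1 the adjusted p of this difference was 0.0281, and with any library left out it ran from -1.46 to -0.78. Crb1 is on chromosome 1, so it is not a neighbour of the altered element.

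Where the RKI effect was above the LC1 effect, Pax3 had the smallest p. Pax3, a paired-box transcription factor gene of dorsal neural tube, was at 3.57, 2.62 and 5.69 CPM among LC1 wild types against 2.30, 1.67 and 2.92 CPM in knockouts. The RKI levels were 0.895, 2.51 and 1.17 CPM in wild types and 3.08, 3.64 and 1.603 CPM in homozygotes. The groups overlap in both experiments. Pax3 had -0.82 in LC1 and 0.90 in RKI, a difference of 1.72 with SE 0.446. Mab21l2, a developmental gene of eye and midbrain, had -0.25 and 0.57, and Pax7, the paralog of Pax3, -0.88 and 0.81. Fabp3, a fatty acid binding protein, had -0.16 and 0.52, and Guk1, guanylate kinase, -0.24 and 0.19. How much midbrain each dissection held was not recorded in the labels. The midbrain list is described below, and whether Pax3 followed it across libraries was not tested.

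Marker lists were used to see whether groups of genes lay on the same side. They are described by counts of signs and medians, beside 48.3% same-sign genes and medians of -0.00 and 0.00 over all tested genes, and no list was tested as a set. No member of any list passed the adjusted threshold.

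Most members of the subpallial and GABAergic list lay higher in both experiments, but not in every altered library. Of 25 tested members, 16 were higher in both, 3 lower in both, 2 higher in LC1 and lower in RKI and 4 the other way, with medians of 0.10 in LC1 and 0.09 in RKI. Gad2, an enzyme of GABA synthesis, was at 155, 159 and 157 CPM among LC1 wild types against 175, 182.5 and 151 CPM in knockouts. RKI libraries were at 130, 159 and 135 CPM in wild types and 147, 152 and 177 CPM in homozygotes, so the groups overlap in both. The shared effects were 0.14 for Gad2 (SE 0.060) and 0.14 for the striatal progenitor gene Six3. Summed over the list, the ranges were 1814 to 1971 CPM and 1744 to 2229 CPM among LC1 wild types against knockouts, and 1766 to 2128 CPM and 1891 to 2208 CPM in RKI wild types and homozygotes. Knockout 71 was the lowest of the LC1 libraries and knockout 22 the highest, at 2229 CPM beside 1989 CPM in knockout 7. In RKI, homozygote A18 at 2208 CPM and wild type A9 at 2128 CPM lay above homozygotes A1 and A10, at 1891 and 1932 CPM. The list as a whole thus overlaps in both experiments, and its altered groups are high mainly through knockout 22 and homozygote A18. Without both embryos 6 and A16, 17 of 25 members had the same sign and the medians were 0.06 and 0.06.

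Choroid plexus markers lay lower in both, with 11 of 18 members lower in both, 2 higher in both and medians of -0.09 and -0.08. Ttr, the thyroid hormone carrier that this epithelium secretes, was at 764, 610 and 566 CPM among LC1 wild types against 613, 604 and 532.5 CPM in knockouts. Its RKI values were 651, 677 and 711 CPM in wild types and 624, 614 and 637 CPM in homozygotes, without overlap in RKI only. Kcne2, a potassium channel subunit, had a shared effect of -0.21 (SE 0.080). Embryos 6 and A16 were the highest libraries of their experiments, at list scores of 0.17 and 0.16. A list score is the mean log2 CPM of the members relative to the mean of the experiment. Without both embryos the medians were -0.02 and -0.01.

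Motile cilia genes and Wnt ligands and antagonists had more members lower in both than higher in both, and in LC1 this moved with knockout 71. Of 19 cilia genes, 12 were lower in both and 1 higher in both, with medians of -0.06 and -0.14. Tekt1, a tektin of ciliary microtubules, was lower in LC1 at -0.57 but had -0.01 in RKI. A16 had the highest cilia score of RKI, 0.26, and without both 6 and A16 the RKI median was -0.03. Knockout 71 had a cilia score of -0.20, against 0.04 and 0.02 in the other knockouts and 0.01 to 0.08 in the wild types, and without it the LC1 median was -0.03. Of 22 Wnt genes, 13 were lower in both and 1 higher in both, with medians of -0.04 and -0.12. Wnt3a, a ligand of the cortical hem, had -0.16 and -0.71, and Rspo3, which amplifies Wnt signals, -0.07 and -0.26. The Wnt medians without both embryos were -0.06 and -0.09, with 13 of 22 members of the same sign. The Wnt score of knockout 71 was -0.16, against 0.04 and -0.02 in the other knockouts. Without knockout 71 the LC1 median of the Wnt list was 0.03, on the other side, and 6 of 22 members had the same sign.

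Genes of the mitochondrial genome lay lower in both for 11 of 17 tested members, with medians of -0.14 and -0.05. The abundant transcripts mt-Co2 and mt-Co3 are listed at 0 in all libraries, so this list covers part of the mitochondrial genome. The ribosomal RNA mt-Rnr2 had -0.18 and -0.23. Cytosolic ribosomal protein genes had 43 of 81 lower in both, with medians of -0.11 and -0.02. Embryo 6 had the highest score of LC1 for both lists, 0.24 and 0.19, and without embryo 6 the LC1 medians were -0.02 and -0.00.

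**Figure D4:**
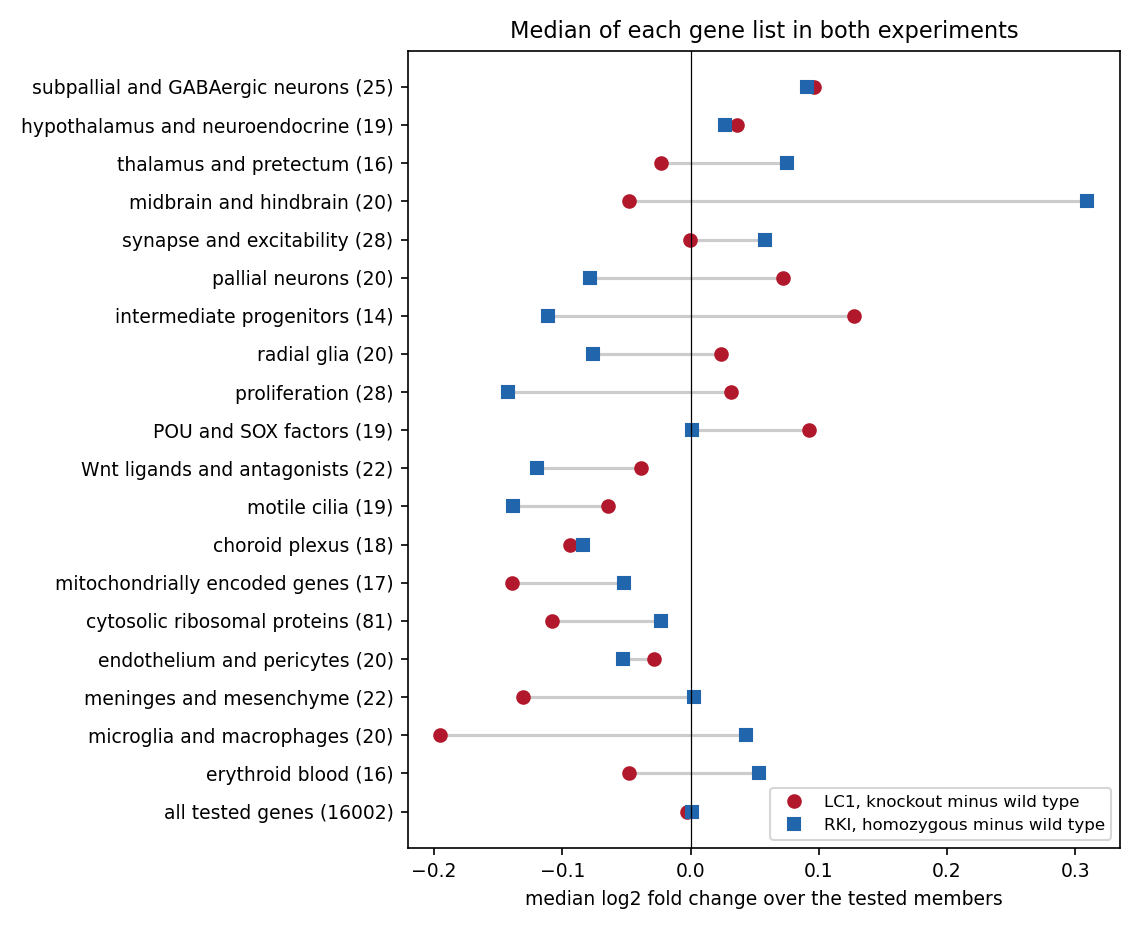
Median log2 fold change over the tested members of 19 gene lists and of all tested genes, with the number of members in parentheses, for LC1 (circles) and RKI (squares). Subpallial and choroid plexus lists have nearly equal medians, whereas intermediate progenitor, pallial, proliferation, microglia and midbrain lists have medians of opposite sign.

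With all libraries, intermediate progenitor genes lay on opposite sides almost without exception, but the scores of their list overlap in both experiments. Of 14 members, 13 were higher in LC1 and lower in RKI and 1 was lower in both, with medians of 0.13 and -0.11. Rcor2, described above, is a member. Insm1, a zinc finger factor of newborn neurons, was at 65.4, 78.3 and 69.6 CPM among LC1 wild types against 84.2, 86.3 and 87.5 CPM in knockouts, without overlap. Within RKI it was at 86.9, 87.3 and 69.5 CPM in wild types and 83.5, 75.9 and 80.3 CPM in homozygotes, which overlap. The difference was -0.30 for Insm1 (SE 0.118) and -0.32 for the Notch ligand gene Dll3. Embryo 6 had the lowest score of LC1, -0.19, and A16 the highest of RKI, 0.21. Wild type 73, at 0.06, lay above knockout 22, at -0.02, and the lowest RKI library was wild type A9, at -0.1227. Without both 6 and A16, 8 of 14 members had opposite signs and the medians were 0.06 and -0.09.

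Pallial neuron genes showed the same opposition. Of 20 members, 11 were higher in LC1 and lower in RKI, 0 the other way, 5 higher in both and 4 lower in both, with medians of 0.07 and -0.08. Tbr1, of early-born cortical neurons, was at 359, 391 and 339 CPM among LC1 wild types against 437, 387 and 383 CPM in knockouts. In RKI it was at 427, 389.7 and 444 CPM in wild types and 394, 371 and 402 CPM in homozygotes. The groups overlap in both experiments. The differences were -0.26 for Tbr1 (SE 0.093), -0.27 for Neurod2 (SE 0.090) and -0.26 for Fezf2. Embryos 6 and A16 were not the extremes of this list, which were knockout 7 at 0.07 and wild type 73 at -0.08 in LC1, and wild type A2 at 0.10 and homozygote A10 at -0.12 in RKI. Without both, 18 of 20 members had opposite signs, with medians of 0.09 and -0.12. The median difference of the pallial list was -0.13 with all libraries and -0.17 without both, whereas that of the intermediate progenitor list was -0.23 and -0.12.

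Proliferation genes had 17 of 28 members higher in LC1 and lower in RKI and 11 lower in both. The LC1 median was 0.03 and the RKI median -0.14. A16 had a score of 0.41 here, against -0.19 to -0.04 in the other RKI wild types and -0.12 to -0.02 in the homozygotes. Without both A16 and 6 the RKI median was 0.05 and the difference 0.01. A16 was also the highest library for Aurkb, at 36.4 CPM, and for Plk1, another mitotic kinase, at 52.0 CPM. For Aurkb the other RKI wild types, at 27.8 and 26.6 CPM, still lay above the homozygotes, at 24.1 to 26.3 CPM. With any library left out, the Aurkb difference ran from -0.60 to -0.37.

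Microglia and macrophage genes were lower in LC1 for 20 of 20 members, 7 of them also lower in RKI and 13 higher, with medians of -0.20 and 0.04. Mrc1, the mannose receptor of macrophages, was at 60.5, 46.6 and 44.3 CPM among LC1 wild types against 41.2, 40.3 and 39.3 CPM in knockouts. The RKI levels were 42.0, 42.4 and 43.4 CPM in wild types and 44.0, 42.0 and 49.2 CPM in homozygotes. The difference was 0.41 with SE 0.133. Embryo 6 had a score of 0.32, and the other LC1 wild types -0.01 and -0.00 against -0.14 to -0.07 in knockouts. Without both 6 and A16 the medians were -0.09 and 0.02.

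Midbrain and hindbrain genes had 11 of 20 tested members lower in LC1 and higher in RKI, with medians of -0.05 and 0.31. The other 12 of 32 listed genes did not pass the filter, and the summed level was 98.3 to 151 CPM over all libraries. Gata3, of midbrain GABAergic neurons, was at 9.42, 7.81 and 9.72 CPM among LC1 wild types against 6.41, 5.87 and 11.1 CPM in knockouts. RKI libraries were at 2.69, 5.14 and 2.03 CPM in wild types and 10.3, 7.72 and 4.73 CPM in homozygotes. A16 had a list score of -0.89, with the next lowest RKI library at 0.01. Without both A16 and 6 the RKI median was 0.26 and the LC1 median -0.13. Thalamus and pretectum genes had medians of -0.02 and 0.08, and Tcf7l2, a Wnt effector of the thalamus, was at 143 CPM in A16 and 212 to 305 CPM in the other RKI libraries. The part of this regional content in the values of Pax3, Pax7, Shox2 and Gbx2 was not tested.

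**Figure D5:**
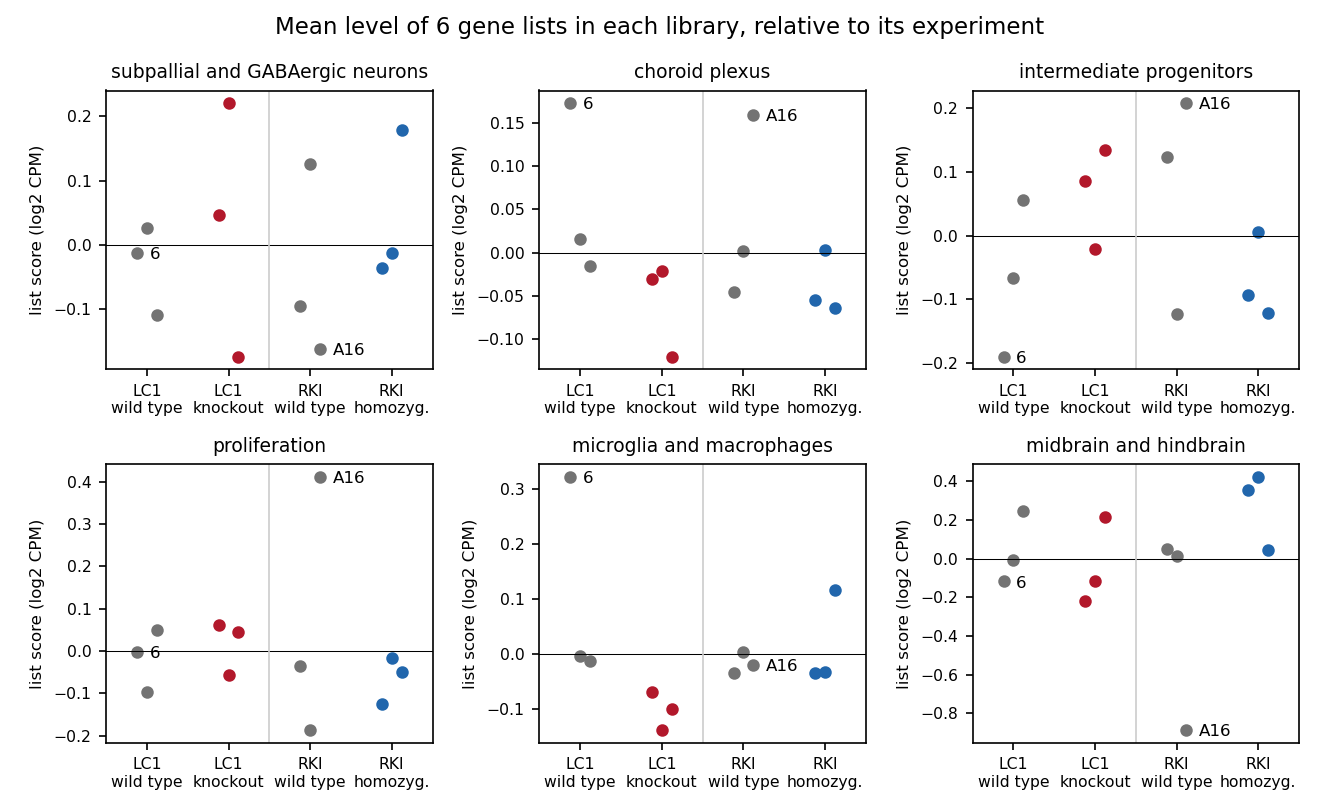
Score of 6 gene lists in each library (points), the mean log2 CPM of the members relative to the mean of the 6 libraries of the same experiment; numbers mark embryos 6 and A16. A16 is at 0.41 for proliferation and -0.89 for midbrain and hindbrain, and embryo 6 at 0.32 for microglia and macrophages.

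The genes around Pou3f2 were mixed, and the POU and SOX factors lay mostly higher in LC1 and were mixed in RKI. Of 15 tested genes near Pou3f2 on chromosome 4, 7 were higher in both, 2 lower in both and 6 had opposite signs, with medians of 0.06 and 0.04. Klhl32, of the kelch-like family, was at 14.7 to 18.7 CPM among LC1 wild types against 16.1 to 17.6 CPM in knockouts, and at 14.2 to 18.2 CPM in RKI wild types and 20.8 to 21.2 CPM in homozygotes. Its effects were 0.02 and 0.36. Of 19 POU and SOX genes, 9 were higher in both, 8 higher in LC1 and lower in RKI, 1 lower in both and 1 lower in LC1 and higher in RKI, with medians of 0.09 and 0.00. The score of this list did not overlap in LC1, with knockouts between 0.03 and 0.08 and wild types between -0.11 and 0.00, and embryo 6 was the lowest. Without both 6 and A16, 7 of 19 members had the same sign and the medians were 0.06 and -0.04. Sox1, a SOXB1 factor of neural progenitors, had 0.19 and 0.09, a shared effect of 0.14 with SE 0.061. The closest relative on the X chromosome, Pou3f4, had 0.13 and 0.05. Sox6 had 0.16 and -0.10.

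The remaining lists had these numbers of members of the same sign: 8 of 20 for radial glia, 11 of 19 for hypothalamus, 3 of 10 for oligodendrocyte precursors, 14 of 28 for synapse genes and 8 of 21 for genes at bipolar disorder loci. They were 8 of 22 for meninges, 13 of 20 for endothelium, 4 of 16 for erythroid blood, 5 of 12 for skin, cartilage and muscle and 4 of 11 for eye. For immediate early genes they were 7 of 20, for hypoxia and glycolysis 13 of 24, for cholesterol synthesis 7 of 24, for interferon response 10 of 14, for imprinted genes 9 of 21 and for histones 6 of 18. Emx2, a transcription factor gene of cortical radial glia, had -0.08 and -0.19, with the smallest p of the shared effect in the radial glia list (0.0206, unadjusted, edgeR).

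The authors' deposited tables of their own comparisons gave a similar share of same-sign genes over all genes. With the sign of the RKI table turned to homozygous minus wild type, 48.3% of 16001 shared genes had the same sign in both tables. By the authors' deposited tables, 24 genes had an unadjusted p under 0.05 in both experiments, 7 with the same sign and 17 with opposite signs, and 0 had an adjusted p under 0.05 in either. The fit here had fewer genes under 0.05 in both, 11, and a more even split, 5 with the same sign and 6 with opposite signs. The same-sign genes in the authors' deposited tables are Abcg5, Eps8l1, Foxr2, Pelo, Ttr, Wnt9a and mt-Rnr2. Of the opposite ones, the authors' deposited tables give -0.50 and 1.01 for the nuclear receptor gene Esrrb, -0.47 and 0.51 for Tfap2b, a transcription factor gene of neural crest and midbrain, and -0.65 and 0.87 for Bhlhe23. Pou4f1, also known from the midbrain, had the reverse order in the authors' deposited tables, 0.39 and -0.53. These tables were made from the same libraries and are not separate evidence.

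Promoters were searched for the octamer of POU factors, ATGCNAAT, on both strands, within 250 bases before to 50 after each start in the RefSeq table of GRCm38.p6. Of 11759 matched tested genes, 328 (2.79%) hold it. None of the 21 matched same-side genes without overlap and none of the 34 matched opposite genes hold these letters in this window. At a share of 2.79%, sets of this size would hold few or none, so the search cannot set them apart from all genes.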

How the data were processed

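Brains of 12 embryos were sequenced after oligo-dT selection, per the labels' protocols. The authors deposited whole-number counts per gene, which were used as deposited. Aligner and counter roles are unstated, but STAR 2.0.4b, featureCounts 1.4.5 from Subread, limma and edgeR appear in the submitters' processing notes. Genome build and strand setting were not given in the sources used here. Gene identifiers, 40690 in number, fill 41264 lines, and 574 repeated lines, identical to those they repeat, were dropped. The authors' deposited comparison tables hold log2 fold changes and p-values; the RKI table is wild type minus homozygous, per the values, and its sign was turned.

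Counts were tested here with edgeR 4.0.16 in R 4.3.3 (quasi-likelihood, TMM, filterByExpr by group, robust, Benjamini-Hochberg at 0.05). A single model held all 12 libraries, 4 group means and a sex term, with 7 residual degrees of freedom and a common biological coefficient of variation of 6.94%. Contrasts were each experiment's effect, their mean (shared effect) and the RKI minus the LC1 effect. SEs were derived from each fold change and its F value. Overlap was read from log2 CPM with a prior count of 2. The code was tested on simulated counts. Named genes are Pou3f2, the 10 with the smallest p per direction of the shared effect and of the difference, the 10 same-side and 10 opposite genes without overlap (mean CPM of at least 1) with the smallest larger-of-both p, and up to 3 members per list and contrast; others named were chosen after their values were seen. Members and lists were chosen with earlier results of these data known. Alternatives used no filter, RLE size factors, no sex term, an additive model, a block of neighbouring embryo numbers, DESeq2 1.42.0, limma-voom (limma 3.58.1) and each library left out. Some genes are not reported here.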

Additional observations from a re-analysis of the deposited data

How the results depend on the processing

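Counts of calls stayed at 0 with RLE size factors, without the sex term, with DESeq2 and with limma-voom. Without the low-count filter there were 13 genes for the shared effect, among them Gata3, Dlx2, Shox2 and Tcf7l2, 17 for the difference, among them Pax3, Pax7, Esrrb and Crb1, and 1 by the larger of both p (Capn11, adjusted p = 0.0432); the cause was not tested. A block of neighbouring embryo numbers, which no label ties to litters, gave 1 difference, Esrrb. With single libraries left out, the calls ranged from 0 to 1 for the shared effect (Wdfy1 without A9 or A10) and 0 to 1 for the difference (Crb1 without A1, Wdfy1 without A9 or A10). Genes without overlap ranged from 60 to 114 on the same side and 88 to 164 on opposite sides, since fewer libraries loosen the criterion. With a log2 fold change of at least 0.2 they were 14 and 17, and without both 6 and A16, chosen after seeing the data, 160 and 206. The same-sign share ranged from 44.94% to 50.75% with single libraries left out, and was 43.85% without the low-count filter. For 50 effects of genes chosen for a small p or for no overlap (Pou3f2 and most list members not included), 0 of 973 alternative values changed direction and 6 newly passed the threshold. Groups of 3 embryos limit the precision: the median SE of the difference was 0.135.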
